A study of Mus musculus with 10 samples.

Results

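The nuclear genes of the mitochondrial respiratory chain and ATP synthase were examined in sorted mouse retinal cells with and without surface CD36, a scavenger receptor that takes up fatty acids and lipoproteins. Members were all genes of the count table whose symbol names a subunit of complexes I to V (symbols starting with Nduf followed by a, b, c, s or v and a digit, Sdha to Sdhd, symbols starting with Uqcr, Cyc1, symbols starting with Cox4 to Cox8, and symbols starting with Atp5). The rule used names only, no measured value, and gave 85 of 21869 genes: 35 in complex I, 4 in complex II, 9 in complex III, 20 in complex IV and 17 in complex V. Ndufa4, which the field now places in complex IV, was counted there. Cox7a2l, Atp5s and Atp5sl match the pattern without naming a classical subunit; Cox7a2l is a factor that joins complexes III and IV into supercomplexes.

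RNA was sequenced from 10 bulk samples that the labels call microglia, all from mice titled WT. Both groups came from the gate of live CD11b+ cells with intermediate CD45, 5 samples CD36+ (here CD36-positive 1, 2, 3, 4 and 7, by the numbers of their labels) and 5 samples CD36- (CD36-negative 1, 2, 4, 7 and 8). The labels describe mice given NaIO3, a compound that injures the retinal pigment epithelium, at 20 mg/kg intravenously, or PBS, with eyes taken 7 days later. They do not say which treatment these 10 samples had, the strain, the age, or whether a sample is 1 animal or a pool. Nothing states that the samples came from separate animals, so p-values measure the spread between these samples, which may be technical. The comparison asks which subunit genes differed between CD36+ and CD36- cells of the same gate.

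In the inner mitochondrial membrane, complex I (NADH dehydrogenase) and complex II (succinate dehydrogenase) pass electrons to coenzyme Q, complex III (cytochrome bc1) passes them to cytochrome c, and complex IV (cytochrome c oxidase) passes them to oxygen. Complexes I, III and IV pump protons, and complex V (ATP synthase) uses the returning protons to turn its c ring and make ATP in its F1 head. A few subunits carry the redox centres or the catalytic sites, and many small accessory subunits serve assembly and stability. In microglia and other macrophages, respiration is known to fall and glycolysis to rise after inflammatory stimuli. The mitochondrially encoded subunits are not analysed here.

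Total counts ran from 5001665 to 13250961 per sample, and 13508 to 15059 genes had a count. The members took 1.29 to 1.53% of counts in CD36-positive and 1.17 to 1.46% in CD36-negative samples. The gene of the sorted protein, Cd36, stood at 170 to 255 CPM (counts scaled to a common library size, here by TMM) in CD36-positive and 41.8 to 55.3 CPM in CD36-negative samples, so the labels and the transcript went the same way. CD36-positive 1 and 3 stood apart from the other CD36-positive samples on the first 3 principal components, and CD36-positive 1 was the shallowest library. Values without these 2 samples are given beside the main results. Homeostatic microglia markers summed to 8490 to 18600 CPM in CD36-positive and 7990 to 18900 CPM in CD36-negative samples, and 0 of the 10 passed edgeR's adjusted test (1 at an unadjusted p under 0.05, 0 in DESeq2 and limma voom). Markers of other cells of the gate differed: all 10 dendritic cell markers were lower in CD36-positive samples (summed level 13.7 to 64.1 against 695 to 1060 CPM), as were 7 of 10 tested monocyte markers (489 to 972 against 1290 to 2350 CPM), 6 of 7 tested neutrophil markers (83.4 to 194 against 300 to 838 CPM; Retnlg, Ly6g and Ngp were at 0 in every CD36-positive sample) and 5 of 5 tested T and NK cell markers (0 to 8.88 against 45.1 to 302 CPM). Photoreceptor markers summed to 139 to 1120 against 453 to 2800 CPM: all 12 tested lay below 0 (median log2 fold change -1.59), 9 at an unadjusted p under 0.05 and 2 past the adjusted test. Of 3 tested vessel markers 2 were lower (5.58 to 13 against 25.6 to 32.5 CPM). Of 7 tested Muller glia and astrocyte markers 1 was higher and 1 lower, and 0 of 2 tested pigment epithelium markers passed in edgeR, at an unadjusted p under 0.05, or in DESeq2 and limma voom. Of 12 cell cycle genes 10 were higher (1080 to 2390 against 584 to 1120 CPM, median log2 fold change 1.20). Without CD36-positive 1 and 3, 4 of the 12 cell cycle genes were higher (median 0.93), and 0 photoreceptor (median -1.29) and 0 vessel markers passed in edgeR, while the dendritic cell, monocyte and neutrophil counts stayed at 10, 7 and 6 lower. In that fit 8 of 8 tested T and NK cell markers were lower. Of the 10 homeostatic microglia markers 1 was then higher (median 0.34, against 0.25 with all samples), and 9 lay above 0. The GC and length correction given further on also called 1 of them higher. These markers moved with the groups in every comparison below, and their part in the results was not tested. In bulk samples, fewer cells of a type and less RNA per cell cannot be told apart.

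In CD36-positive samples 5 small subunit genes rose, by 1.55-fold to 1.75-fold: Atp5k of complex V, Uqcrb and Uqcr11 of complex III, and Ndufa4 and Cox7a2 of complex IV. No member fell past the threshold. The filter on low counts left 81 of the 85 members, and the call was an adjusted p under 0.05 in edgeR's quasi-likelihood test over all 11596 genes tested. The 5 higher members of 81 stand beside 2.61% of all genes tested that were higher, and the 0 lower members beside 4.74% that were lower. At an unadjusted p under 0.05, edgeR had 21 members higher (10.6% of all genes) and 2 lower (10.8% of all genes), the latter being Cox7a2l and Atp5sl, named after their values were seen. DESeq2 called 10 members higher (4.33% of all genes it tested) and 1 lower (6.08%), and limma voom with quality weights called 8 higher (2.85%) and 1 lower (5.23%); the lower member was Cox7a2l in both. Of the 81, 64 had a log2 fold change above 0 (79.0%, against 51.2% of all genes tested), and the median was 0.24 against 0.02 over all genes. Leaving out CD36-positive 1 and 3, 68 lay above 0, and the median was 0.23 against -0.03 over all genes. The groups did not overlap, CD36-positive being higher, for 7 members (2.59% of all genes), and did not overlap the other way for 1 (5.83% of all genes). The 7 were the called genes without Uqcrb, plus Ndufa3, Sdhc and Atp5j; the 1 was Cox7a2l.

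**Figure D1:**
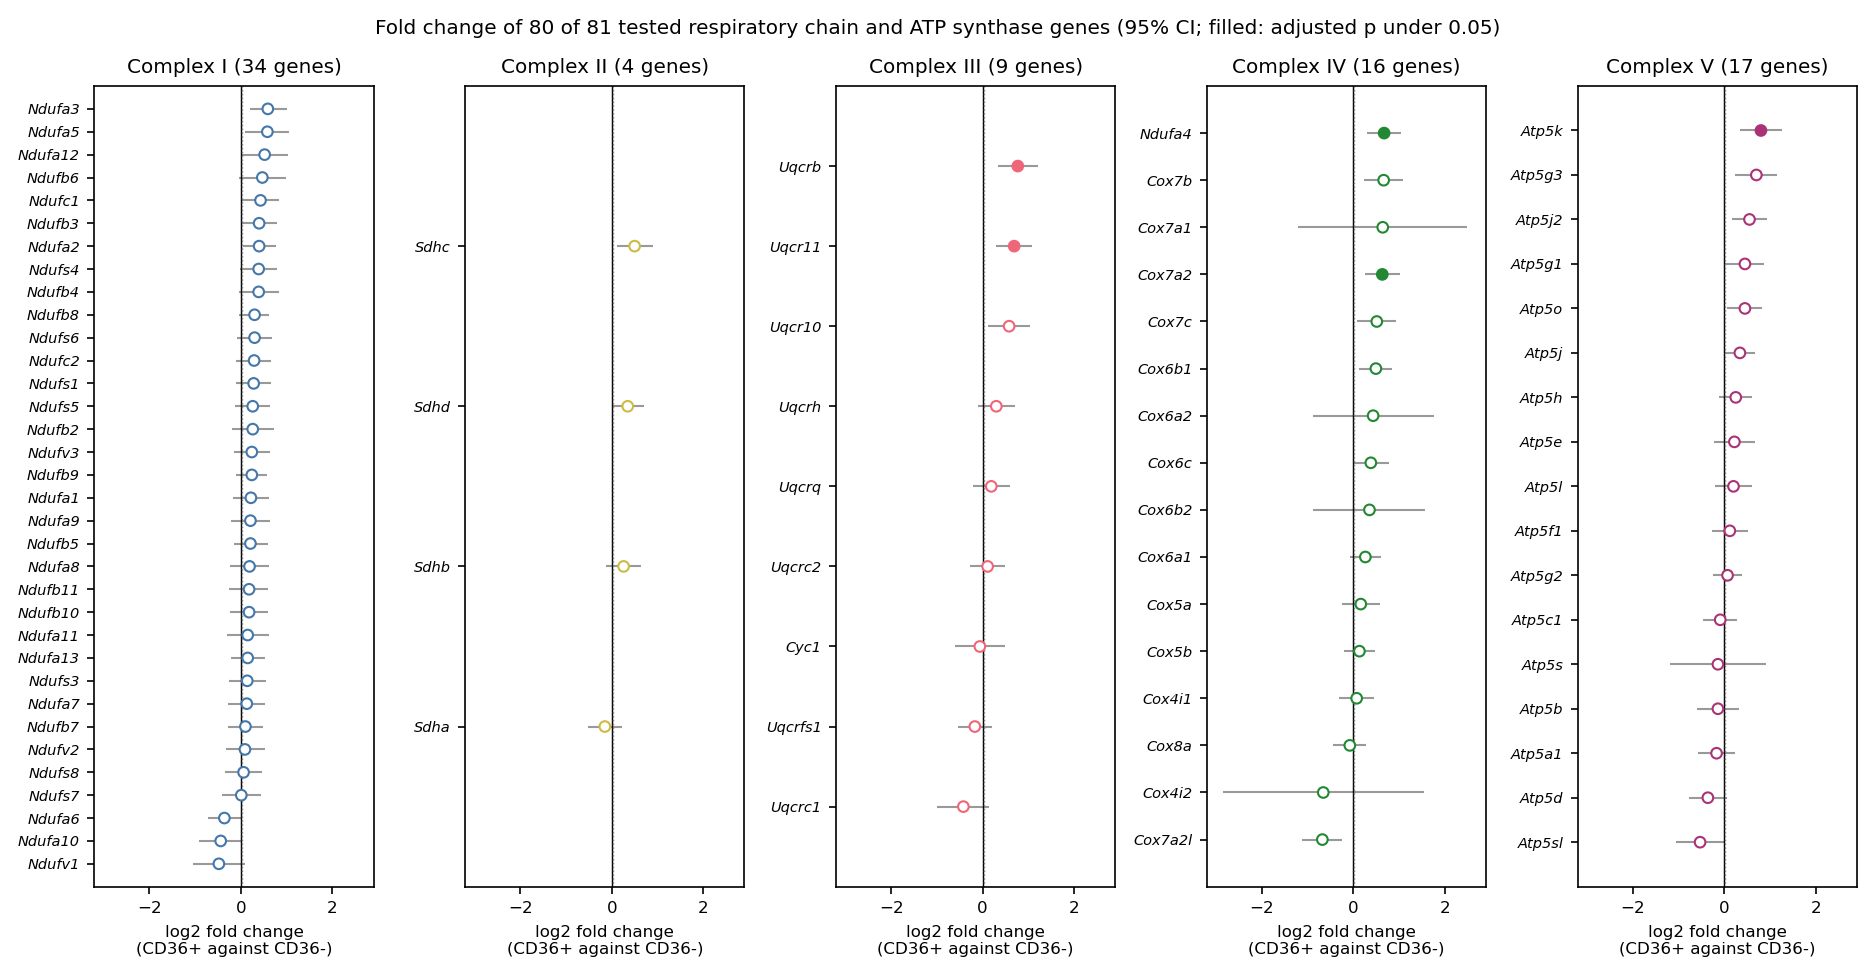
Log2 fold change (horizontal axis, CD36+ against CD36-) of 80 of the 81 tested members, each with its 95% confidence interval, in 1 panel per complex. Filled points passed an adjusted p of 0.05; the dotted line is the median of all genes tested (0.02). The 5 filled points lie in complexes III, IV and V, and the 34 points of complex I run from -0.48 to 0.59.

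The calls depended on single samples. All 5 calls were lost, with directions kept, when CD36-negative 1, CD36-negative 7, CD36-positive 2 or CD36-positive 3 was left out, or CD36-positive 1 and 3 together (0 members higher, beside 1.55% of all genes). Without CD36-negative 4 Atp5k alone passed, without CD36-negative 8 Uqcr11 alone, and without CD36-positive 1 all but Uqcrb. In counts simulated from these libraries, the same test recovered 0.896% of genes changed 1.5-fold and 28.4% of genes changed 2-fold. The simulation changed fewer genes than were called here, drawn at any level, so these rates do not carry over to the members.

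Promoters of such genes are known to be bound by NRF1, by GABPA (an ETS factor), by YY1 and by the estrogen-related receptors (ERR), so the letters of these factors' core motifs were searched in the RefSeq promoters (GRCm38.p6, 250 bases before to 50 after the start, both strands), which matched 69 of the 85 members. The letters searched were GCGCATGC for NRF1, CCGGAAGT for GABPA, AAGATGGCG for YY1 and TCAAGGTCA for ERR; the NRF1 motif and its reverse share letters, so 1 palindromic run counts on both strands. NRF1's letters were in 10 members (14.5%), against 5.26% of the 11473 promoters of tested genes and 2.71% of all 32851 promoters. YY1's were in 7 members (10.1%, against 3.12% and 1.4%), GABPA's in 5 (7.25%, against 8.18% and 3.89%) and ERR's in 2 (2.9%, against 0.279% and 0.423%). The median log2 fold change was 0.2 for the 10 tested members with the NRF1 letters and 0.25 for the 57 without. It was 0.3 with and 0.23 without the YY1 letters (7 and 60 members), 0.25 and 0.23 for GABPA (5 and 62) and 0.52 and 0.22 for ERR (2 and 65). Shown are the matches in the called members, and in the c subunit genes Atp5g2 and Atp5g3 compared further on, 30 bases each, 5′ to 3′ on the gene's strand, with the motif in capitals. Of the called members, Ndufa4 and Cox7a2 held none of the 4 motifs, and Uqcrb had no entry.
Atp5k, NRF1, chr5:108434430-108434459, minus strand: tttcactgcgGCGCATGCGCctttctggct
Uqcr11, NRF1, chr10:80406807-80406836, minus strand: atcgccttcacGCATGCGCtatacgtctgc
Uqcr11, GABPA, chr10:80406869-80406898, minus strand: ttctctcctccCCGGAAGTagatgtcaatg
Atp5g2, NRF1, chr15:102671070-102671099, minus strand: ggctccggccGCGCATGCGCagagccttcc
Atp5g3, ERR, chr2:73911359-73911388, minus strand: tgttacaaagTGACCTTGAgcgtcttcccc
A match is a description of letters only: both Atp5k (log2 fold change 0.80) and Atp5g2 (0.07) carry the same palindromic NRF1 run.

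Complex I had no called member among 35, although 31 lay above 0 (median log2 fold change 0.22, from -0.48 to 0.59). With edgeR, 6 passed an unadjusted p of 0.05, and DESeq2 and limma voom each called 1, Ndufa3. In complex I 11 of the 35 passed as higher with the GC and length correction given further on, beside 5.87% of all genes. Its 28 accessory genes had a median of 0.25 and its 7 core genes, which carry the flavin and the iron-sulfur clusters and bind coenzyme Q, a median of 0.06; without CD36-positive 1 and 3 these were 0.25 and 0.15. The accessory genes with the smallest p were Ndufa3 and Ndufa5. Ndufa3, an accessory subunit of the membrane arm, measured 105, 96.5, 133, 90.4 and 86.9 CPM in CD36-positive 1, 2, 3, 4 and 7 and 71.2, 85.6, 71.7, 55.4 and 55.1 CPM in CD36-negative 1, 2, 4, 7 and 8. Every CD36-positive sample was above every CD36-negative sample, but the closest pair differed by little. For Ndufa3 the log2 fold change was 0.59 (SE 0.19, edgeR adjusted p = 0.0754). An exon of Ndufa3 overlaps Tfpt on the opposite strand, and the labels do not say whether the counting used strand.

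Ndufa5, a subunit of the peripheral arm, had a mean of 79.0 ± 16.4 CPM (SD, n = 5) in CD36-positive and 52.9 ± 14.3 CPM (n = 5) in CD36-negative samples, with overlap and an edgeR adjusted p of 0.139. Among the core genes, Ndufv1, the subunit that binds NADH and the flavin, measured 27.2, 82.9, 34.4, 66.2 and 69.7 CPM in CD36-positive 1, 2, 3, 4 and 7 and 86.6, 88.9, 77.5, 76.3 and 63.3 CPM in CD36-negative 1, 2, 4, 7 and 8. CD36-positive 1 and 3 were low and the other 3 samples lay within the CD36-negative range, and the log2 fold change was -0.48 with all samples (SE 0.27, edgeR adjusted p = 0.322) and -0.12 without these 2. Ndufs1, the largest iron-sulfur subunit, did not share the low value of CD36-positive 1: it measured 60.8, 66.9, 80.5, 72.4 and 55.2 CPM against 44.2 to 63.2 CPM (log2 fold change 0.28, edgeR adjusted p = 0.417).

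Complex II, the enzyme shared with the tricarboxylic acid cycle, had 4 members, 0 called by edgeR, DESeq2 or limma voom and 1 (Sdhc) at an unadjusted edgeR p under 0.05. In complex II 2 passed as higher with the GC and length correction, beside 5.87% of all genes. Its 2 membrane anchors had a median log2 fold change of 0.43 and its 2 catalytic subunits 0.05, and 0.35 and 0.16 without CD36-positive 1 and 3. Sdhc, an anchor, measured 106, 106, 146, 95.2 and 94.7 CPM in CD36-positive 1, 2, 3, 4 and 7 and 68.5, 81.3, 78.2, 64.1 and 94.5 CPM in CD36-negative 1, 2, 4, 7 and 8. The groups did not overlap, although CD36-negative 8 was almost level with CD36-positive 7. The log2 fold change of Sdhc was 0.50 (SE 0.19, edgeR adjusted p = 0.118), and 0.34 without CD36-positive 1 and 3. Sdhd, the other anchor, averaged 149 ± 23.5 against 117 ± 10.6 CPM (SD, n = 5 each; log2 fold change 0.35, edgeR adjusted p = 0.236). Sdha, the flavoprotein that oxidises succinate, averaged 213 ± 29.9 against 236 ± 38.3 CPM (-0.15, adjusted p = 0.685). Sdhb, the iron-sulfur subunit, averaged 251 ± 54.6 against 211 ± 17.4 CPM, with CD36-positive 1 at 159 CPM below and the other 4 CD36-positive samples above every CD36-negative sample (0.26, adjusted p = 0.453).

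Complex III split by subunit size. Its 5 small subunits all had a log2 fold change above 0 (median 0.58, 2 called higher), while its 4 large subunits, the core proteins Uqcrc1 and Uqcrc2, cytochrome c1 and the Rieske protein, ran from -0.42 to 0.11 with 0 called by edgeR, DESeq2 or limma voom and 0 at an unadjusted edgeR p under 0.05. The small subunits had a median of 0.39 and the large subunits of 0.04 without CD36-positive 1 and 3. Uqcrb, long known as the ubiquinone-binding protein, measured 319, 316, 410, 213 and 207 CPM in CD36-positive 1, 2, 3, 4 and 7 and 158, 227, 175, 134 and 163 CPM in CD36-negative 1, 2, 4, 7 and 8. CD36-positive 1, 2 and 3 were above every CD36-negative sample, and CD36-positive 4 and 7 were below CD36-negative 2. Its log2 fold change was 0.77 (SE 0.21, edgeR adjusted p = 0.033), and it fell to 0.50 (adjusted p = 0.17) without CD36-positive 1 and 3. An exon of Uqcrb overlaps Gm10767 on the opposite strand.

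Uqcr11, the smallest subunit of the complex and the member with matches to both NRF1 and GABPA above, measured 113, 137, 141, 106 and 109 CPM in CD36-positive 1, 2, 3, 4 and 7 and 69.7, 85.4, 81.7, 51.3 and 87.7 CPM in CD36-negative 1, 2, 4, 7 and 8. Every CD36-positive sample was above every CD36-negative sample. With all samples the log2 fold change was 0.69 (SE 0.19, edgeR adjusted p = 0.0347), and 0.63 (adjusted p = 0.0723) without CD36-positive 1 and 3. Of the large subunits, Uqcrc1 measured 65.7, 262, 183, 236 and 266 CPM in CD36-positive 1, 2, 3, 4 and 7 and 236 to 295 CPM in CD36-negative samples. CD36-positive 1 lay far below all other samples (log2 fold change -0.42, edgeR adjusted p = 0.407, and -0.10 without CD36-positive 1 and 3). Cyc1, cytochrome c1, showed the same single low value, 41.5 CPM in CD36-positive 1 against 125 to 148 CPM in the other CD36-positive samples and 110 to 145 CPM in CD36-negative samples (log2 fold change -0.06, adjusted p = 0.922, and 0.19 without CD36-positive 1 and 3). Uqcrfs1, the Rieske iron-sulfur protein, averaged 148 ± 32.1 against 166 ± 14.3 CPM (SD, n = 5 each; adjusted p = 0.63).

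Complex IV had a median log2 fold change of 0.36 over 16 tested genes, of which 13 lay above 0 and 2, Ndufa4 and Cox7a2, rose. The median was 0.23, with 12 above 0 and 0 called by edgeR, without CD36-positive 1 and 3. Counted by summed CPM the difference was smaller, a log2 ratio of 0.157 (3510 ± 241 against 3150 ± 500 CPM, SD, n = 5 each). Cox4i1 led this sum, and Cox7a2l, at 286 ± 83.2 against 460 ± 64.0 CPM, was part of it. The 11 common subunits alone summed to 3220 ± 234 against 2680 ± 449 CPM. Ndufa4, a small subunit at the edge of the complex, measured 171, 172, 214, 157 and 158 CPM in CD36-positive 1, 2, 3, 4 and 7 and 92.7, 147, 112, 90.8 and 105 CPM in CD36-negative 1, 2, 4, 7 and 8. The groups did not overlap, and CD36-positive 3 was the highest. The difference was 0.67 on the log2 scale (SE 0.18, edgeR adjusted p = 0.0303), and 0.56 (adjusted p = 0.0863) without CD36-positive 1 and 3.

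Cox7a2, the common form of subunit 7a, measured 193, 239, 231, 155 and 168 CPM in CD36-positive 1, 2, 3, 4 and 7 and 132, 154, 132, 109 and 109 CPM in CD36-negative 1, 2, 4, 7 and 8. CD36-positive 4 was the only CD36-positive sample near the highest CD36-negative sample. Its log2 fold change was 0.63 (SE 0.18, edgeR adjusted p = 0.0408), and 0.55 (adjusted p = 0.102) without CD36-positive 1 and 3. Its relative Cox7a2l, which takes the place of subunit 7a when complexes III and IV join, went the other way: it measured 194, 340, 197, 343 and 358 CPM in CD36-positive 1, 2, 3, 4 and 7 and 473, 564, 443, 417 and 403 CPM in CD36-negative 1, 2, 4, 7 and 8. Every CD36-positive sample was below every CD36-negative sample, and CD36-positive 1 and 3 were the lowest. Its log2 fold change was -0.68 (SE 0.20), just short of the threshold (edgeR adjusted p = 0.0518), and it passed in 9 of 22 other fits (adjusted p 0.0183 to 0.162). Without CD36-positive 1 and 3 it was -0.42. The other common subunits ran from -0.08 (Cox8a) to 0.66 (Cox7b, edgeR adjusted p = 0.061). Among them, Cox4i1, Cox5a and Cox5b had log2 fold changes of 0.07, 0.16 and 0.13 (edgeR adjusted p 0.687 to 0.873).

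**Figure D2:**
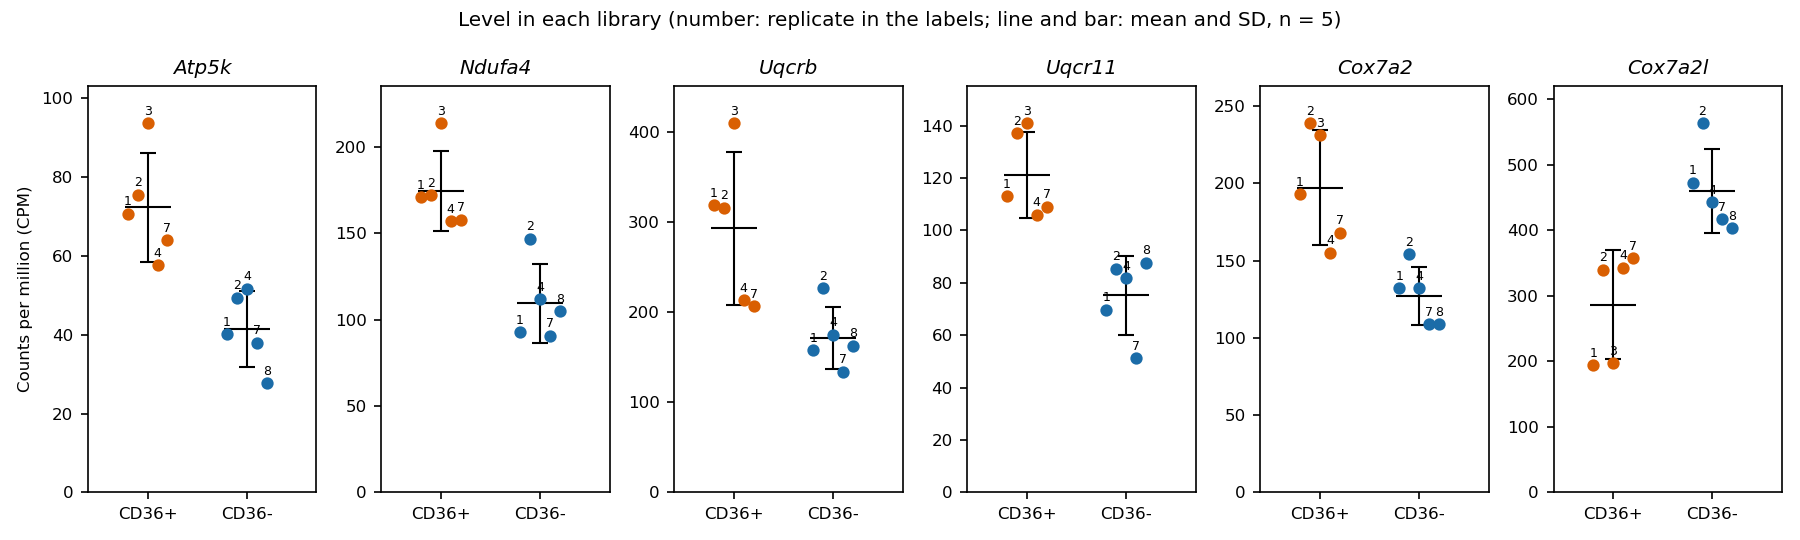
Level in CPM (vertical axis) of the 5 called genes and of Cox7a2l in each of the 10 libraries, numbered as in the labels, with the mean and SD of each group (n = 5). CD36+ points lie above all CD36- points for Atp5k, Ndufa4, Uqcr11 and Cox7a2, overlap for Uqcrb, and lie below for Cox7a2l.

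Complex V divided between its catalytic head and its membrane sector. The 3 membrane genes Atp5k, Atp5j2 and Atp5l had a median log2 fold change of 0.55, the 3 c ring genes 0.45, the 4 peripheral stalk genes 0.30 and the 5 F1 head genes -0.14. The first 3 medians were 0.47, 0.26 and 0.29 without CD36-positive 1 and 3. The head genes as counted here include those of the central stalk. Atp5k, subunit e, which helps join ATP synthase into dimers, measured 70.7, 75.5, 93.7, 57.6 and 64.0 CPM in CD36-positive 1, 2, 3, 4 and 7 and 40.1, 49.4, 51.7, 38.0 and 27.7 CPM in CD36-negative 1, 2, 4, 7 and 8. The groups did not overlap. Its log2 fold change was 0.80 (SE 0.21, edgeR adjusted p = 0.0287), the largest of the members, and 0.66 (adjusted p = 0.103) without CD36-positive 1 and 3. The annotation holds 1 pseudogene named after Atp5k, so reads of near-identical copies could have been split by the counting.

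In the head, Atp5b, the catalytic beta subunit, measured 407, 1030, 740, 786 and 986 CPM in CD36-positive 1, 2, 3, 4 and 7 and 937, 759, 871, 874 and 908 CPM in CD36-negative 1, 2, 4, 7 and 8. CD36-positive 1 was low, and CD36-positive 2 and 7 were above every CD36-negative sample (log2 fold change -0.14, edgeR adjusted p = 0.768). Atp5a1, the alpha subunit, had the same low sample, 300 CPM in CD36-positive 1 against 495 to 645 CPM in the other 4 and 464 to 646 CPM in CD36-negative samples (-0.17, adjusted p = 0.677). For Atp5c1, the gamma subunit of the rotor, the means were 372 ± 81.9 and 396 ± 37.6 CPM (SD, n = 5 each; adjusted p = 0.826). Without CD36-positive 1 and 3 the median of the 5 head genes was 0.09 instead of -0.14, so its direction rested on those 2 libraries.

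The c ring is encoded by 3 genes whose mature proteins are the same, so their shares say which gene supplies the transcript. Per kilobase of transcript, Atp5g2 held 59.7 ± 5.92% in CD36-positive and 67.3 ± 1.75% in CD36-negative samples (SD, n = 5 each). The transcript used for Atp5g2 has 441 nucleotides, 438 of them coding, against 691 for Atp5g1 and 714 for Atp5g3. It holds almost no untranslated sequence, so the share of Atp5g2 may be too high in both groups. Atp5g3 held 20.4 ± 5.06% and 15.2 ± 1.76%, and Atp5g1 held 19.9 ± 2.99% and 17.5 ± 1.91%. Atp5g3 measured 238, 150, 167, 104 and 124 CPM in CD36-positive 1, 2, 3, 4 and 7 and 76.8, 122, 103, 87.8 and 91.8 CPM in CD36-negative 1, 2, 4, 7 and 8. CD36-positive 1 was by far the highest, and CD36-positive 4 fell below CD36-negative 2 (log2 fold change 0.70, SE 0.22, edgeR adjusted p = 0.0658, and 0.38 without CD36-positive 1 and 3). Atp5g2 was nearly level, at 278 ± 21.4 against 264 ± 28.7 CPM (0.07, 95% interval -0.24 to 0.39, adjusted p = 0.828). The ratio of Atp5g3 to Atp5g2 was 0.567 ± 0.2 against 0.365 ± 0.0467, and 0.446 ± 0.0481 (n = 3) without CD36-positive 1 and 3.

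The common forms of the complex IV isoform pairs were used in both groups. Per kilobase, Cox4i1, Cox6a1, Cox6b1, Cox7a2, Cox7b, Cox8a and Ndufa4 held at least 96.6% of their families in every library. The muscle, lung and testis forms were near 0: Cox8c had 3 counts in all 10 libraries together, Ndufa4l2 had 4 and Cox7b2 had 7, and these 3 and Cox8b did not pass the filter on low counts. Cox4i2, the hypoxia-linked form of subunit 4, had 86 counts in 8 libraries, against 63139 for Cox4i1. Its fold change has a 95% interval of -2.86 to 1.54 on the log2 scale, so no difference was detectable at this depth.

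Compared per kilobase of transcript, the level of single subunits spanned a wide range within each complex. The highest member of each was Cox4i1 in complex IV (895 ± 184 CPM per kb in CD36-positive and 856 ± 117 in CD36-negative samples, SD, n = 5 each), Atp5g2 in complex V (630 ± 48.6 and 598 ± 65.1), Uqcrb in complex III, Ndufa2 in complex I (374 ± 41.6 and 283 ± 49.9) and Sdhb in complex II (220 ± 47.8 and 184 ± 15.3). Over both groups, Uqcrb averaged 434 CPM per kb, close to Atp5b at 433. Atp5g2 averaged 614 and Atp5l, next in complex V, 514, but the short transcript used for Atp5g2 may raise its value and rank. The lowest tested member of complex I was Ndufs1, at 23.6 CPM per kb. The median over members was 128 CPM per kb in complex I and 252 in complex IV.

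**Figure D3:**
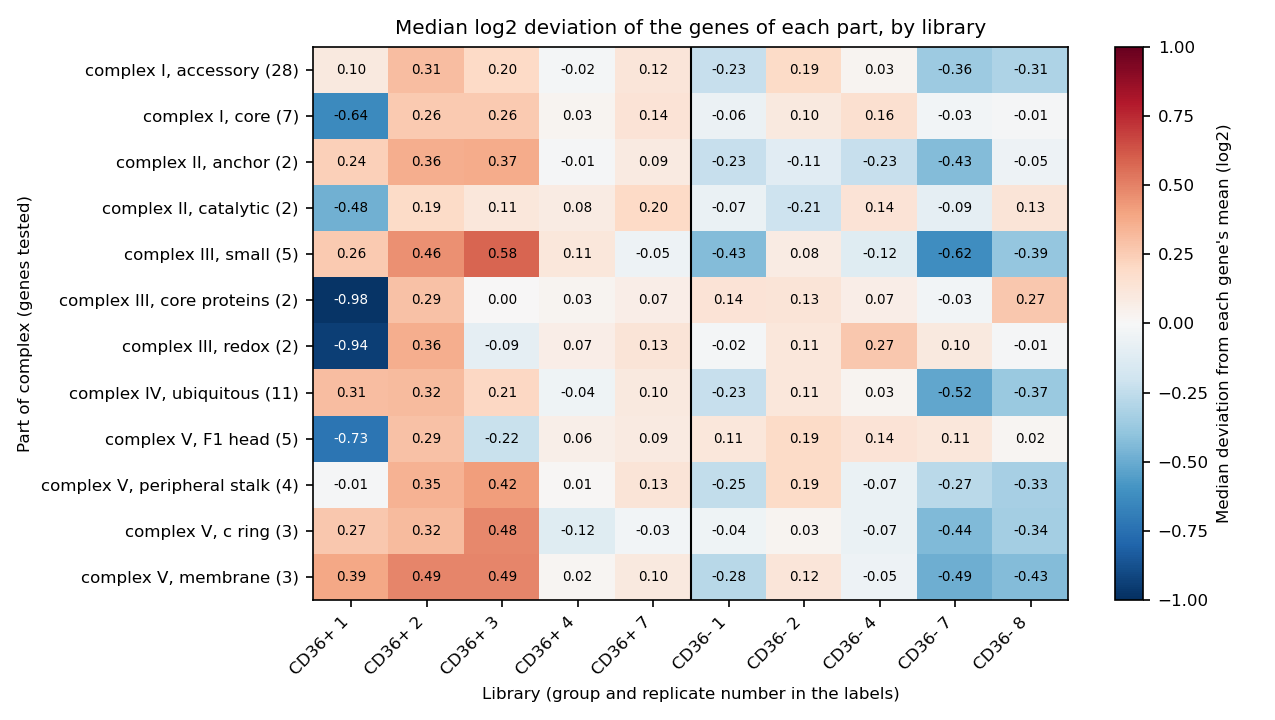
Median over the genes of each part (rows, with the number of genes tested) of the log2 deviation from the gene's mean over all 10 libraries, for each library (columns). CD36+ 1 is low in the rows of core, catalytic, redox and F1 head parts (-0.48 to -0.98), and CD36- 7 and 8 are low in the rows of small and membrane parts.

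Across the complexes the same division appeared. The 16 catalytic and redox members (the complex I core, Sdha, Sdhb, Cyc1, Uqcrfs1 and the F1 head) had a median log2 fold change of -0.07, with 7 above 0, and 0 passed in edgeR, DESeq2 or limma voom, also at an unadjusted edgeR p under 0.05. The F1 head genes include Atp5c1, Atp5d and Atp5e of the central stalk, so the name of the set is loose. The other 65 tested members had a median of 0.29, with 57 above 0, and held all 5 called genes. Without CD36-positive 1 alone the catalytic median was 0.05. Without CD36-positive 1 and 3 it was 0.10 against 0.27 for the other members, so the gap narrowed. The median of the catalytic set changed sign, with 11 of its 16 genes then above 0. No test was made of the difference between these sets, which were described with results of these data known.

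Ratios within a library restate the same counts without any scaling between libraries, so they are not separate evidence. The 5 small to the 4 large subunits of complex III stood at 2.68, 1.27, 1.85, 1.12 and 1.07 in CD36-positive 1, 2, 3, 4 and 7 and at 0.819, 1.17, 0.91, 0.722 and 0.825 in CD36-negative 1, 2, 4, 7 and 8. CD36-positive 1, 2 and 3 were above every CD36-negative sample, and CD36-positive 4 and 7 were below CD36-negative 2. The means were 1.60 ± 0.679 and 0.889 ± 0.169 (SD, n = 5 each), and 1.15 ± 0.107 (n = 3) without CD36-positive 1 and 3. The accessory to core ratio of complex I was 4.56 ± 1.22 against 3.55 ± 0.434, with CD36-positive 1 at 6.71 and the others at most 4.38, and 3.91 ± 0.102 (n = 3) without CD36-positive 1 and 3. The anchor to catalytic ratio of complex II was 0.576 ± 0.147 against 0.439 ± 0.0611, and the ratio of the membrane part and c ring to the F1 head was 0.582 ± 0.209 against 0.397 ± 0.078. Without CD36-positive 1 and 3 these were 0.493 ± 0.0565 and 0.445 ± 0.0336 (n = 3) in CD36-positive samples, each mean within the CD36-negative range. The means without these 2 samples also lay within that range for complex III (0.722 to 1.17) and complex I (3.15 to 4.18). In each of these, CD36-positive 1 had the highest ratio, and CD36-positive and CD36-negative samples overlapped.

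**Figure D4:**
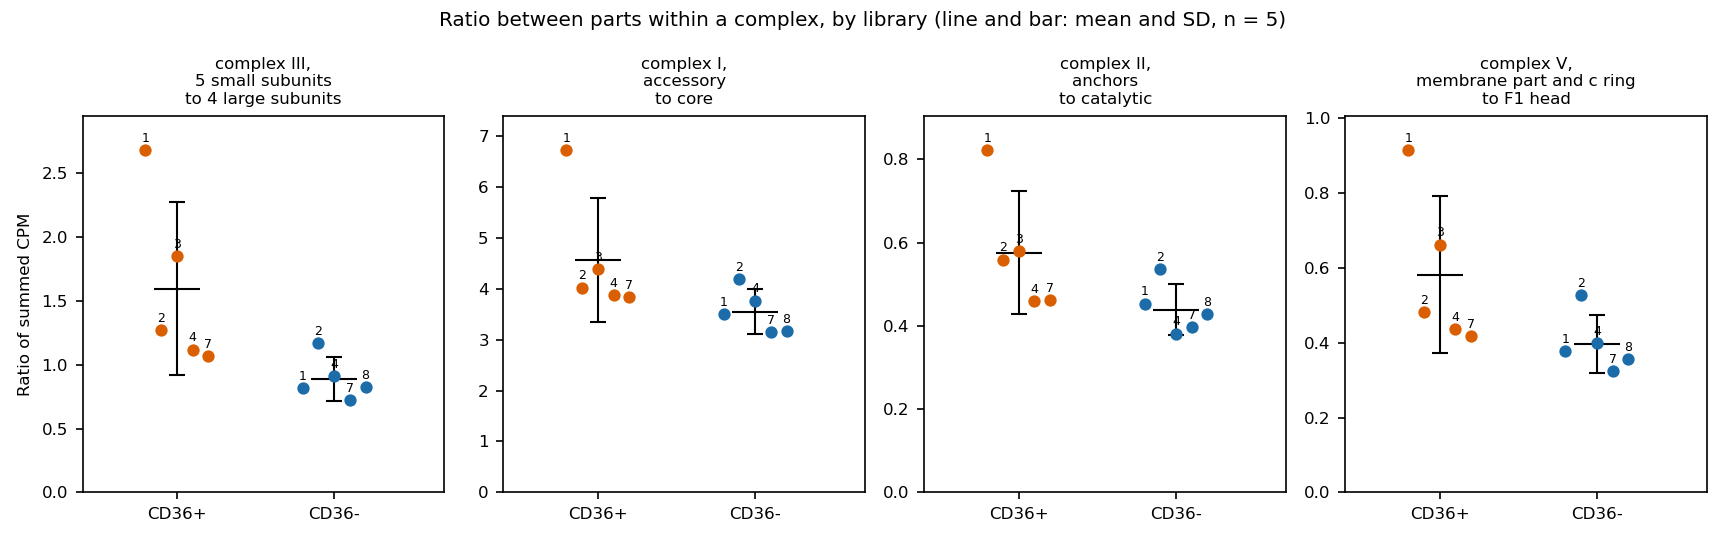
Ratio of summed CPM between 2 parts of a complex (vertical axes) in each library, numbered as in the labels, with the mean and SD of each group (n = 5). CD36+ 1 is the highest point in all 4 panels, and the groups overlap in each.

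Small subunits have short coding sequences, and the fold change followed coding length. Over the 81 members, Spearman's rho between coding length and log2 fold change was -0.62, against -0.00 over the 11358 genes tested that have a coding length; the points are genes of the same 10 libraries and are not independent replicates. Members coding for under 300 nucleotides had a median log2 fold change of 0.49 (21 genes, of which 4 were called), against 0.20 over 239 genes of that length. From 300 to 600 nucleotides it was 0.25 (38 genes) against 0.09 (1276 genes), from 600 to 1200 nucleotides 0.01 (13 genes) against -0.03 (3329 genes), and from 1200 nucleotides -0.15 (9 genes) against 0.01 (6514 genes). The last 2 bins hold under 20 members each. Without CD36-positive 1 and 3 the rho was -0.38 for the members and -0.12 over all genes. The 4 medians were then 0.34, 0.24, 0.15 and 0.01 for the members. Over all genes of these lengths they were 0.15, 0.1, 0.01 and -0.07, so both fell with length. Within single libraries, the deviation of the members from their means had different relations to length: rho was -0.69 in CD36-positive 1 and -0.44 in CD36-positive 3, and -0.12, 0.21 and 0.21 in CD36-positive 2, 4 and 7. It was 0.55, -0.07, 0.30, 0.58 and 0.55 in CD36-negative 1, 2, 4, 7 and 8.

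A correction of each library for GC content and transcript length left the members' distance from other genes nearly the same and changed the calls. It moved the median of all genes from 0.02 to 0.16 and that of the members from 0.24 to 0.39, so the distance went from 0.22 to 0.23. With it 26 members passed as higher, beside 5.87% of all genes, and 4 of the 5 called genes were among them (Uqcrb had an adjusted p of 0.0545). By complex, from I to V, the members that passed numbered 11, 2, 2, 5 and 6. Coding length was not part of the correction, and the members' rho with coding length was -0.52 after it.

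**Figure D5:**
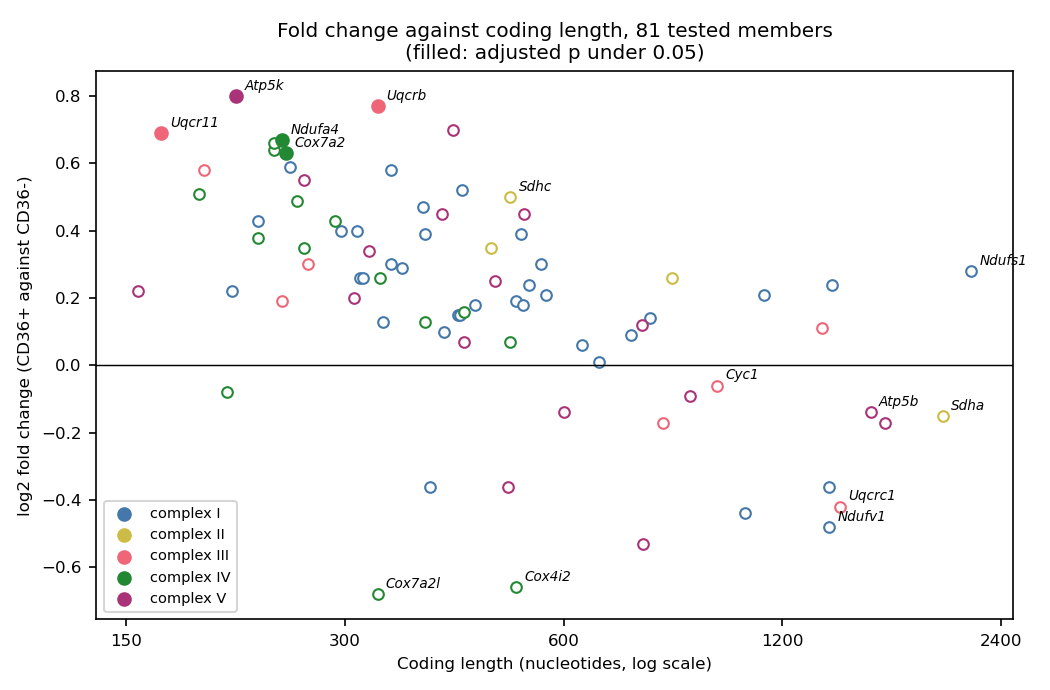
Log2 fold change (vertical axis) against coding length in nucleotides (horizontal axis, log scale) for the 81 tested members, coloured by complex. Filled points passed an adjusted p of 0.05, and 4 of the 5 lie under 300 nucleotides, while Ndufv1 and Uqcrc1, with longer coding sequences, lie below 0.

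Few genes that build or feed the complexes passed. Of all genes tested, 2.61% were higher and 4.74% lower in edgeR, and 10.6% and 10.8% at an unadjusted p under 0.05. DESeq2 called 4.33% higher and 6.08% lower, and limma voom 2.85% and 5.23%. Of the assembly factors, 0 of 14 for complex I, 0 of 22 for complex IV and 0 of 6 for ATP synthase passed in edgeR (median log2 fold changes 0.07, 0.20 and -0.03, with 8, 18 and 2 genes above 0, and 0.05, 0.14 and 0.10 without CD36-positive 1 and 3); at an unadjusted p under 0.05 there was 1, 0 and 1, all higher, DESeq2 called 1, 0 and 0, and limma voom 1, 0 and 1. Of 10 factors for complexes II and III, 1 fell: Sdhaf1, which helps load iron-sulfur clusters into Sdhb, measured 15.4, 12.9, 16.5, 12.1 and 19.1 CPM in CD36-positive 1, 2, 3, 4 and 7 and 36.2, 29.9, 26.3, 26.9 and 23.7 CPM in CD36-negative 1, 2, 4, 7 and 8. Every CD36-positive sample was lower (log2 fold change -0.91, SE 0.25, edgeR adjusted p = 0.0318). The call held in 12 of 22 other fits; it was lost without CD36-negative 1, 2, 4 or 7 or CD36-positive 2 or 4, with no filter, with either replicate block and with the GC and length correction (adjusted p 0.0543 to 0.0983) and held without CD36-positive 1 and 3 (adjusted p = 0.0435).

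Of 22 tested genes of the tricarboxylic acid cycle and pyruvate entry, 2 fell and 0 rose in edgeR (4.74% and 2.61% of all genes). With 18 below 0, the median was -0.19 (-0.17, with 1 lower, without CD36-positive 1 and 3). At an unadjusted p under 0.05 there were 6 lower and 0 higher, beside 10.8% and 10.6% of all genes. DESeq2 called 3 lower and limma voom 2, beside 6.08% and 5.23% of all genes. Mdh2, the mitochondrial malate dehydrogenase that supplies NADH to complex I, measured 76.1, 256, 192, 185 and 212 CPM in CD36-positive 1, 2, 3, 4 and 7 and 509, 559, 311, 391 and 376 CPM in CD36-negative 1, 2, 4, 7 and 8. Every CD36-positive sample was lower (log2 fold change -1.22, SE 0.26, edgeR adjusted p = 0.00731), and it passed in all 22 other fits, at -0.99 without CD36-positive 1 and 3. Pdk3, a kinase that inhibits pyruvate dehydrogenase, averaged 27.5 ± 6.47 against 50.2 ± 8.06 CPM (SD, n = 5 each; log2 fold change -0.86, edgeR adjusted p = 0.0234), and did not pass without CD36-negative 2 or 7, without CD36-positive 3, without CD36-positive 1 and 3, or with the replicate block on the description's numbers (adjusted p 0.0597 to 0.0834). In edgeR 0 of 13 genes of coenzyme Q synthesis and cytochrome c passed (median -0.14), 0 of 15 regulators of mitochondrial biogenesis (0.03), 0 of 6 carriers and porins (0.04), 0 of 11 cristae genes (0.26), 0 of 5 supercomplex and hypoxia factors (-0.11) and 0 of 92 cytosolic ribosomal protein genes (-0.06). These 6 medians were 0.14, -0.07, 0.13, 0.20, 0.06 and -0.12 without CD36-positive 1 and 3. At an unadjusted p under 0.05, these 6 lists had 0, 2, 0, 2, 0 and 2 genes higher. They had 1, 0, 0, 1, 0 and 9 lower. Of all genes, 10.6% were higher and 10.8% lower at that threshold. DESeq2 called 1 biogenesis regulator higher and 1 ribosomal protein gene in each direction, and limma voom 0 genes in the 6 lists.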

How the data were processed

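The deposited table held raw expected counts per gene symbol and sample, which are estimates (91.9% of the values were integers). The submitters' processing notes name fastp 0.18.0, Bowtie2 2.2.8, HISAT2 2.1.0, StringTie 1.3.1 and the build mm10 without their roles; no source used here names the counting program. Of 22008 lines, 8 malformed and 131 repeated lines were dropped, and 0 member lines lay next to damage. Expected counts were rounded, which touched 6 members. Samples were grouped by their labels. The filter was filterByExpr at a minimum count of 10. TMM factors and the quasi-likelihood test came from edgeR 4.0.16 (glmQLFit and glmQLFTest, on group alone) under R 4.3.3, with Benjamini-Hochberg adjustment at 0.05 over 11596 genes. Alternatives used DESeq2 1.42.0, limma 3.58.1 voom with quality weights, other filters and scalings, covariates, replicate blocks, left-out samples, and a GC and length correction fitted per library with mgcv 1.9.3. The test was tested on simulated data (5 runs of 11432 genes on average), where 5.32% of calls were false. Transcript and coding lengths came from GENCODE M21 (GRCm38), using 1 transcript per gene; levels between genes were compared only per kilobase. Complexes and lists were described by counts and medians, with no list test. Named genes were Cd36, every called member, in each complex the 2 members of smallest p and the member of highest level per kilobase, fixed catalytic and redox subunits, and the isoform families. The members and lists were chosen with earlier results of these data known. Other samples of the series are not analysed here. The single values of 1 complex I gene are not reported here.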

Additional observations from a re-analysis of the deposited data

Results flagged for a closer look

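In 88 groups of 5 samples (each named gene and each complex sum in each group), 8 times 1 sample stood far from the other 4 by Dixon's criterion, where chance gives about 1 in 20 groups. Cyc1 was at 41.5 CPM in CD36-positive 1 against 125 to 148 CPM in the other CD36-positive samples. CD36-positive 3 was high for Ndufa4, at 214 CPM against 157 to 172 CPM, and for Sdhc, at 146 CPM against 94.7 to 106 CPM. Cox5b was low in CD36-positive 4, at 197 CPM against 240 to 244 CPM.

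The other 4 concern isoforms near 0. Where the rest of a group stood at 0, any count was enough for the flag. Cox8b was at 1.02 CPM in CD36-positive 2, with the other CD36-positive samples at 0, and at 3.34 CPM in CD36-negative 8 against 0 to 0.307 CPM in the others. Cox8c was at 0.101 CPM in CD36-negative 2 and Ndufa4l2 at 0.334 CPM in CD36-negative 8, the other CD36-negative samples being at 0 for both.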

How the results depend on the processing

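Against 5 members higher, 3 passed with no filter on low counts, 9 with Y-linked expression as a covariate, 26 with the GC and length correction, 10 with DESeq2, 8 with limma voom, 0 at an adjusted p of 0.01 and 0 without CD36-positive 1 and 3; leaving out 1 sample gave 0 to 6. Against 0 lower, 1 (Cox7a2l) passed with RLE size factors, with no filter, with at least 10 CPM in 5 samples, with the Y-linked covariate, with DESeq2 and with limma voom, and 0 to 1 with 1 sample left out. No label says that replicate numbers pair the samples, and the weak correlations between samples cannot decide it. After centring within each group, same-numbered samples correlated at 0.0288, 0.133, 0.0989 and 0.101 by the description's numbers. Only number 2 of these 4 correlated best with its own number. By the title's numbers the correlations ran from -0.0215 to 0.133, and numbers 2 and 5 correlated best with their own. A replicate block on the description's numbers left 0 members higher and 0 lower, and a block on the title's numbers 6 higher and 1 lower. The medians of the 5 complexes, or their log2 ratios of summed CPM, were above 0 in all 122 alternatives, which share most samples. The median of all genes was itself 0.16 with the GC and length correction and 0.07 with no filter. Of the complex values 2 moved by more than the sample SD. Complex II moved to 0.508 with the GC and length correction (from 0.303). Complex IV moved to 0.157 as summed CPM with Cox7a2l included (from 0.361). No called gene reversed; of 647 values called in neither fit, 18 changed sign. With 5 samples a group, members not called may still differ. In simulated data most 2-fold changes were missed. Those data held fewer changed genes, drawn at any level, so how many changed members were missed here is not known.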
